A study of Homo sapiens with 6 samples.

Results

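The Polo-like kinases are a family of 5 human genes, *PLK1* to *PLK5*, and all 5 were found by their Ensembl identifiers among the 58336 genes of the count table. RNA was sequenced from A2780, an established ovarian cancer cell line, after 48 h with 6 µM TH588 or after the vehicle DMSO alone. The sample labels give no time for DMSO. TH588 is a first-generation inhibitor of the nucleotide pool enzyme MTH1 that also stalls cells in mitosis. The design text gives 3 independent experiments for each treatment, and the libraries are labelled replicate A, B and C, which makes 6 libraries of 1 cell line. Total counts ran from 83144642 to 98176722 with DMSO and from 28537837 to 99074175 with TH588, and TH588 replicate A was the shallowest library. The small nucleolar RNA *SNORD3A* took 21.9% of the counts in that library and 7.68 to 12.95% in the others. Of 7 genes chosen as markers of ovarian or epithelial origin, 5 (*PAX8*, *WT1*, *MUC16*, *KRT8* and *CDH1*) stayed under 1 CPM (counts scaled to a common library total) in every library, and the summed level of the 7, carried by *EPCAM* and *KRT18*, was 3.82 to 4.6 CPM with DMSO and 10.9 to 12.2 CPM with TH588. The 4 markers each for leucocytes, fibroblasts and endothelium summed to 0.742 to 1.27, 28.9 to 46.3 and 0.0 to 0.149 CPM over the 6 libraries. The fibroblast sum was 28.9 to 33.4 CPM with DMSO and 39.9 to 46.3 CPM with TH588. That rise was carried by *PDGFRA*, with means of 17.1 CPM with DMSO and 29.3 CPM with TH588. The means were 6.99 and 6.45 CPM for *DCN*, 2.84 and 2.93 CPM for *LUM*, and 3.97 and 3.84 CPM for *COL1A1*. *CD3E* was at 0 in all libraries. The part of these differences in the results given here was not tested.

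Polo-like kinases are serine/threonine kinases that carry a kinase domain at one end and polo boxes, which dock the enzyme to its targets, at the other. *PLK1* drives entry into mitosis, centrosome maturation, spindle assembly and cytokinesis, and *PLK4* starts the duplication of centrioles. *PLK2* and *PLK3* were first described as genes that answer quickly to serum and stress, and *PLK2* is a known target of p53. Human *PLK5* encodes a shortened protein without a working kinase domain and is best known from brain.

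Short stretches around the start sites are shown because *PLK1* and *PLK4* moved one way and *PLK2* and *PLK3* the other. They are from RefSeq's promoter table for GRCh38.p14, which held 6 windows for 4 of the 5 genes; *PLK5* had none. Each window covers 250 bases before the start site and 50 after it. Capitals mark matches to the motifs searched on both strands. These were TTTGAA, the core of the cell cycle genes homology region (CHR), the CCAAT box, the SP1 motif GGGCGG, the CRE-like motif TGACGTC, and 3 E2F-like motifs, of which the first was TTCCCGC, the second was TTGGCGC and the last was TTCGCGC. The stretches printed, 5′ to 3′ on the gene's own strand, were chosen for their matches after these were seen, and no 2 matches in them overlap. Positions count from 0 at the start site. The stretches of *PLK1*, *PLK2* and *PLK3* lie before that site but inside the span of the counted gene. Those of *PLK2* and *PLK3* fall in exons of longer annotated transcripts.
PLK1, chr16:23678769-23678868, plus strand: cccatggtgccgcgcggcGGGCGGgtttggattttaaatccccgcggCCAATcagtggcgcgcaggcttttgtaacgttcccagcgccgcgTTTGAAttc
PLK4, chr4:127880919-127880942, plus strand: cggcgggagattTTCAAAatggga
PLK2, chr5:58460115-58460144, minus strand: gagtctCCGCCCccTTCCCGCctccccgta
PLK3, chr1:44800285-44800314, plus strand: ctgctaggaaggGGGCGGgactctcggtga

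In *PLK1* the CHR letters began at position -29, the CCAAT letters at -73 and an SP1 motif at -102. *PLK4* had 3 windows, and only the first, from which its stretch comes, held the CHR letters. They lay on the opposite strand just after the start, at positions 38 to 43. Window 2 of *PLK4* held the E2F-like TTGGCGC at -188 and window 3 the CCAAT letters at -86, both on the opposite strand. In *PLK2* an SP1 motif on the opposite strand, at -52, stood next to the E2F-like TTCCCGC at -44, and the stretch of *PLK3* holds an SP1 motif at -80. Neither the *PLK2* nor the *PLK3* window held TTTGAA or CCAAT, and the *PLK2* window held TTCCCGC a further time at -214. Of all 35116 promoter windows of this length, the CHR letters stood in 15.2%, the CCAAT box in 34.6%, the SP1 motif in 45.0% and the CRE-like motif in 3.4%. The first, second and last E2F-like motifs stood in 6.6%, 3.0% and 2.2%. All 6 windows of the family held the SP1 motif, 2 held the CHR letters, 2 the CCAAT box, and none the last E2F-like or the CRE-like motif. These matches describe the letters of the windows and are not binding measurements.

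After TH588, *PLK2* and *PLK3* transcripts rose, *PLK1* and *PLK4* transcripts fell, and *PLK5*, which was barely detected, did not pass the test. All 5 genes passed the filter on low counts. Of the 5, 4 differed at an adjusted p under 0.05 by edgeR's quasi-likelihood test over 15844 genes, against 49.6% of all genes tested. The 2 rises stand against 24.2% of genes higher, and the 2 falls against 25.3% lower. The values of the 2 groups did not overlap for any of the 5, which held for 57.7% of all genes tested. With so many genes changed, the count of called members is not a result about the family, and the sizes and directions carry the description. CPM values are on library sizes normalized by TMM, a scaling that sets most genes to no change. Over all genes, TMM gave 3839 higher and 4013 lower, whereas library size alone gave 4248 higher and 2786 lower, with the calls and directions of the 5 members kept. For 1 gene alone, exact permutation of 6 libraries gives a two-sided p of at least 0.1, so the tests here come from the model over all genes.

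**Figure D1:**
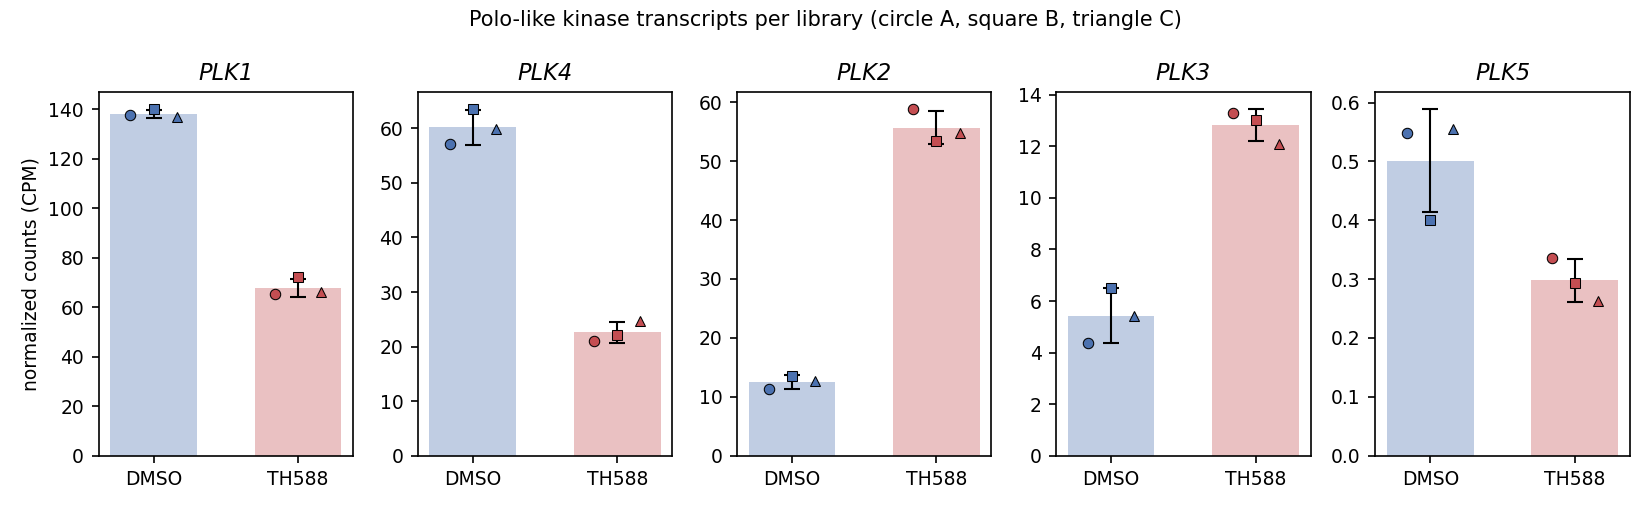
Normalized counts (CPM) of each Polo-like kinase in the 6 libraries, with a linear axis from 0 for each gene, bars for the mean of 3 replicates, error bars for the SD and points for the libraries. *PLK1* and *PLK4* are lower in all 3 TH588 libraries, *PLK2* and *PLK3* are higher in all 3, and *PLK5* stays under 0.6 CPM throughout.

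*PLK1* (ENSG00000166851, chromosome 16, 23677656 to 23690367, GRCh38), the kinase of mitotic entry and exit, had 138, 140 and 137 CPM in replicates A, B and C of DMSO, against 65.5, 72.1 and 66.2 CPM after TH588. The DMSO libraries lay close together and every TH588 library lay well under them. The mean fell from 138 ± 1.66 to 67.9 ± 3.62 CPM (SD, n = 3 each), 2.03-fold. Its log2 fold change was -1.02 (standard error 0.08, 95% interval -1.19 to -0.86, adjusted p = 6.17e-07 by edgeR). Of the genes tested, 5.04% had a lower log2 fold change. Whether fewer cells carried *PLK1* RNA or each cell carried less cannot be told apart in bulk RNA, and this holds for every gene named here. Exons of *ERN2* and ENSG00000261266, both on the other strand, cover 12.5% of the *PLK1* exon bases, and the library kit does not mark strand. *ERN2* had 4 to 31 counts and ENSG00000261266 had 0 in each library, against 1754 to 12813 counts of *PLK1*.

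*PLK4* (ENSG00000142731, chromosome 4, 127880861 to 127899195), the trigger of centriole duplication, had 57.2, 63.5 and 59.8 CPM with DMSO and 21.0, 22.1 and 24.7 CPM with TH588. The highest treated library was far under the lowest control. The mean fell from 60.2 ± 3.17 to 22.6 ± 1.88 CPM (SD, n = 3 each), 2.66-fold, a log2 fold change of -1.41 (standard error 0.09, 95% interval -1.60 to -1.22, adjusted p = 2.07e-07 by edgeR). It lay lower in the distribution than *PLK1*, with 1.78% of tested genes under it. No other gene of the table shares its exon bases.

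*PLK2* (ENSG00000145632, chromosome 5, 58453982 to 58460260), a stress-induced kinase that also acts at the centrosome, had 11.3, 13.6 and 12.6 CPM with DMSO and 58.8, 53.5 and 54.8 CPM with TH588. All 3 treated libraries were thus close together and far above the controls. Its mean went from 12.5 ± 1.17 up to 55.7 ± 2.77 CPM (SD, n = 3 each), 4.46-fold. The log2 fold change was 2.16 (standard error 0.10, 95% interval 1.95 to 2.36, adjusted p = 1.87e-08 by edgeR), higher than in 97.7% of tested genes. This was the largest log2 fold change of the 5 members. *PLK2* shares no exon bases with another gene.

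*PLK3* (ENSG00000173846, chromosome 1, 44800225 to 44805990), a kinase linked to stress and DNA damage responses, was the scarcer of the stress-induced pair. It had 4.38, 6.52 and 5.41 CPM with DMSO and 13.3, 13.0 and 12.1 CPM with TH588. The controls were more spread than the treated libraries, and the groups stayed apart. The mean rose from 5.44 ± 1.07 to 12.8 ± 0.623 CPM (SD, n = 3 each), 2.36-fold, a log2 fold change of 1.24 (standard error 0.14, 95% interval 0.92 to 1.55, adjusted p = 2.21e-05 by edgeR), higher than in 91.8% of tested genes. Exons of *DYNLT4* cover 2.24% of its exon bases, and *DYNLT4* had at most 7 counts in a library.

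*PLK5* (ENSG00000185988, chromosome 19, 1524074 to 1536046), the shortened member, had 45, 33 and 52 counts with DMSO and 9, 32 and 22 counts with TH588. These are 0.548, 0.3999 and 0.555 CPM against 0.336, 0.294 and 0.264 CPM, low in every library. The exact 95% Poisson interval was 0.154 to 0.638 CPM in TH588 replicate A, which took in all 3 DMSO values, 0.201 to 0.415 CPM in replicate B, which took in that of DMSO replicate B alone, and 0.165 to 0.399 CPM in replicate C, which took in none. Such intervals cover counting error only. The log2 fold change of -0.78 (standard error 0.36, 95% interval -1.56 to 0.01) missed the threshold, with an adjusted p = 0.0943 by edgeR. The start of *PLK5* in the table lies inside the longer gene of GENCODE v44, which begins at 1508023.

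Levels of different members can be set side by side only per length, as RPKM, the CPM per kilobase of summed exon length. With DMSO the order was *PLK1* at 29.0 ± 0.3496, *PLK4* at 13.4 ± 0.708, *PLK2* at 2.62 ± 0.245, *PLK3* at 1.56 ± 0.307 and *PLK5* at 0.163 ± 0.0285 RPKM (SD, n = 3). With TH588 it was *PLK1* at 14.3 ± 0.761, *PLK2* at 11.7 ± 0.581, *PLK4* at 5.04 ± 0.419, *PLK3* at 3.68 ± 0.179 and *PLK5* at 0.0970 ± 0.0119 RPKM (SD, n = 3). *PLK2* and *PLK4* thus changed places, and no neighbours in either order overlapped between libraries. The lowest *PLK1* level with TH588 was 13.8 RPKM and the highest *PLK2* level 12.3 RPKM, both in replicate A. The sum over the family was 45.5 to 48.4 RPKM with DMSO and 34.5 to 35.2 RPKM with TH588.

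**Figure D2:**
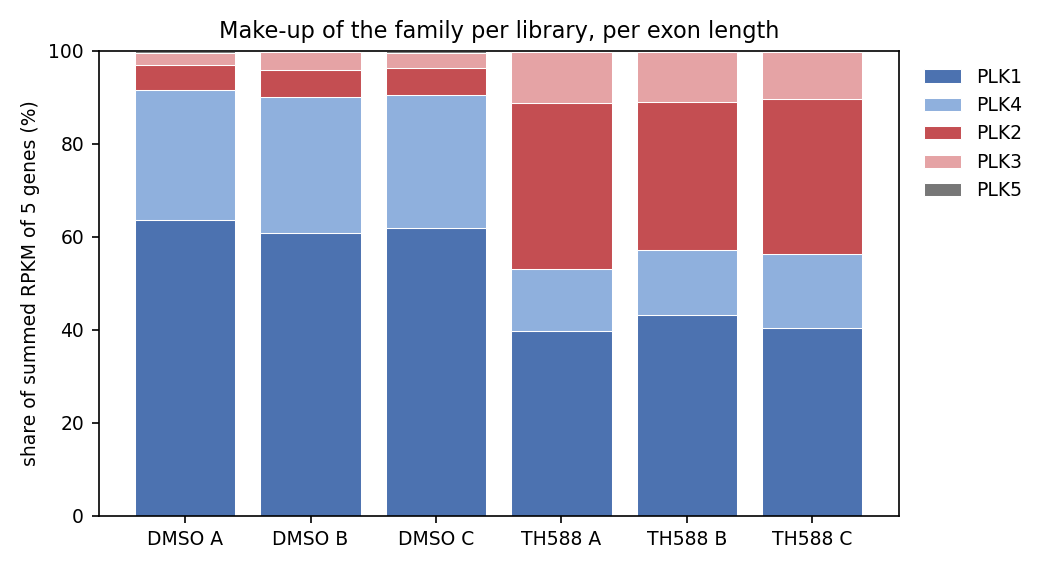
Share of the summed RPKM of the 5 Polo-like kinases, in percent, in each library. *PLK1* takes 60.7 to 63.6% with DMSO and 39.7 to 43.1% with TH588, and *PLK2* goes from 5.2 to 5.9% with DMSO to 31.9 to 35.5% with TH588.

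As shares of that sum, *PLK1* made up a mean of 62.0% with DMSO and 41.0% with TH588, and *PLK4* 28.7% and 14.5%. *PLK2* went from 5.59% to 33.6% and *PLK3* from 3.33% to 10.6%. Within each library, the log2 ratio of the mean of *PLK2* and *PLK3* over that of *PLK1* and *PLK4* (log2 RPKM) was -3.48, -3.14 and -3.27 with DMSO and -0.23, -0.42 and -0.47 with TH588. That is a shift of 2.93 from a mean of -3.30 ± 0.17 to -0.37 ± 0.13 (SD, n = 3 each). A ratio within a library does not depend on how libraries are scaled. It is a description over chosen genes and was given no test.

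The members of a pair also moved by unequal amounts. The *PLK2* over *PLK1* log2 ratio rose by 3.18, from -3.47 ± 0.13 to -0.29 ± 0.14 (SD, n = 3 each). *PLK3* over *PLK2* went from -0.76 ± 0.15 to -1.67 ± 0.07. *PLK4* over *PLK1* went from -1.11 ± 0.06 to -1.5 ± 0.15. In all 3 cases the groups did not overlap.

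**Figure D3:**
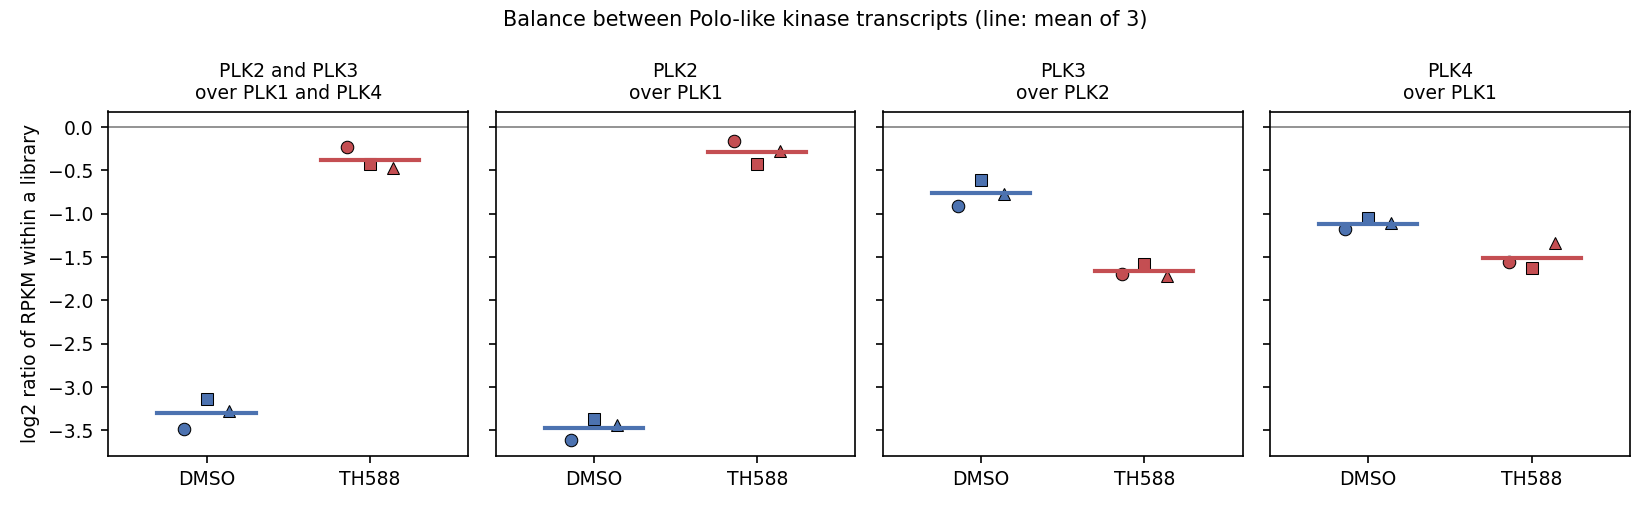
Log2 ratio of RPKM between members within each library, with points for replicates A (circle), B (square) and C (triangle) and a line for the mean of 3. The ratio of *PLK2* and *PLK3* over *PLK1* and *PLK4* moves from -3.30 to -0.37 on average, and the ratios within the pairs move by less than 1.

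Genes of mitotic entry and of *PLK1* activation fell, as *PLK1* did. Of 13 such genes, all 13 were tested and lower at an adjusted p under 0.05 by edgeR, against 25.3% of all genes tested, with a median log2 fold change of -1.01 against 0.019 over all genes tested. That share (25.3% lower, with 24.2% higher and 49.6% called either way) and that median are the background for each list that follows; no list was tested against it. The largest falls were those of *CDK1*, the kinase of mitotic entry (-1.86, standard error 0.12), *MYBL2*, a transcription factor of cell cycle genes (-1.77, standard error 0.14), and *CCNA2*, which encodes cyclin A2 (-1.58, standard error 0.09). *CDK1* had 53.03, 61.2 and 62.0 CPM with DMSO and 12.9, 17.1 and 18.0 CPM with TH588. *AURKA*, the kinase that phosphorylates the activation loop of *PLK1*, and *BORA*, its cofactor in this, had log2 fold changes of -1.11 and -0.996, against -1.02 for *PLK1*. *CDC25B*, a phosphatase that activates CDK1, fell least (-0.25), and its call was lost in 12 of 14 alternatives. The 13 are not all drivers of entry: *WEE1* (-0.80) and *PKMYT1* (-1.26), kinases that inhibit CDK1, are among them. Exons of other genes cover 31.6% of the exon bases of *PKMYT1*.

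Proteins that *PLK1* docks to or phosphorylates at kinetochores, spindle and midbody were mostly lower in RNA. All 22 were tested, 18 were lower, 3 were higher and 1, the cohesin subunit *STAG2* (0.09), did not pass, with a median of -1.03, beside 25.3% lower and 24.2% higher over all genes. The deepest falls were *CLSPN*, which encodes the checkpoint adaptor claspin (-2.21, standard error 0.09), *FBXO5*, which encodes the APC/C inhibitor EMI1 (-2.03, standard error 0.09), and *ERCC6L*, which encodes the PICH helicase (-1.55, standard error 0.09). *CLSPN* had 171, 148 and 158 CPM with DMSO and 31.9, 37.4 and 33.6 CPM with TH588. The rises were *KIZ*, which encodes the centrosome protein kizuna (1.08), *NINL*, which encodes a ninein-like centrosome protein (0.58), and *NUMA1*, which encodes a spindle pole protein (0.29). The *NUMA1* call was lost in 5 of 14 alternatives. Exons of other genes cover 24.9% of the exon bases of *NUMA1*, and its groups overlapped.

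The 7 genes plotted as brakes on *PLK1* are for ubiquitin ligases, a phosphatase and related factors, and not all of them hold it back. Of these, 1 was called, beside 49.6% of all genes, and 0 to 2 were called under the alternatives. It was *CUL3*, with a fall of 0.25 on the log2 scale (adjusted p = 0.0288 by edgeR), and the median was -0.15. That call was lost in 7 of 14 alternatives, among them the fits without DMSO replicate A, DMSO replicate C, TH588 replicate B and TH588 replicate C. *CHFR*, which encodes the premitotic checkpoint ligase, was near the limit of detection, with 16 to 36 counts in the DMSO libraries and 17 to 45 with TH588. Its log2 fold change of 0.81 (standard error 0.44) did not pass the threshold (adjusted p = 0.143 by edgeR), but did so without DMSO replicate B, at 1.28.

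**Figure D4:**
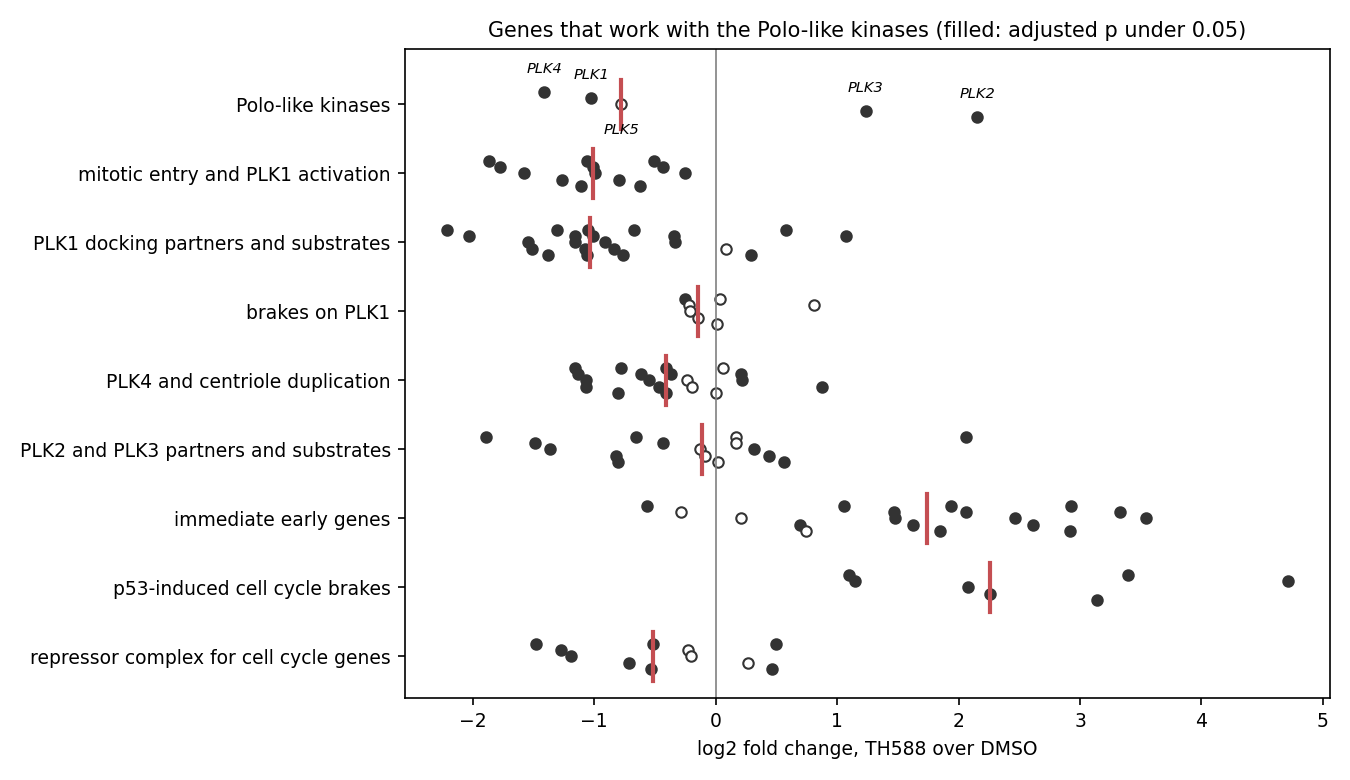
Log2 fold change of each tested gene by list, with filled points for an adjusted p under 0.05, open points for the rest and a red line for the list's median. All 13 mitotic entry genes lie under 0 beside *PLK1* and *PLK4*, and the immediate early and p53-induced genes lie mostly above 1 with *PLK2* and *PLK3*.

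Around *PLK4*, more of the centriole duplication genes fell than rose. Of 19 tested, 12 were lower, 3 were higher and 4 did not pass, with a median of -0.41, beside 25.3% lower and 24.2% higher over all genes. The largest falls were *CEP135*, which encodes a centriole cartwheel and wall protein (-1.16, standard error 0.12), *SASS6*, the cartwheel protein (-1.13, standard error 0.09), and *STIL*, the partner that *PLK4* phosphorylates (-1.07, standard error 0.08). *SASS6* had 38.4, 38.5 and 39.1 CPM with DMSO and 16.6, 18.9 and 17.3 CPM with TH588. The rises were *CEP97*, which encodes a centriole capping protein (0.88, standard error 0.10), and *BTRC* (0.22) and *FBXW11* (0.21), which encode the F-box proteins that mark *PLK4* for breakdown. The *BTRC* and *FBXW11* calls were lost in 11 and 10 of 14 alternatives. None of the named centriole genes fell as far as *PLK4*.

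Partners and substrates of *PLK2* and *PLK3* showed no common direction. Of 17 genes, 16 were tested, with 7 lower, 4 higher and 5 that did not pass, and a median of -0.11. Over all genes 25.3% were lower and 24.2% higher, so the rises in this list were near the background share. *CDC25A*, a phosphatase that activates CDKs (-1.89, standard error 0.10), *TOP2A*, the mitotic topoisomerase (-1.49, standard error 0.10), and *VRK1*, a chromatin kinase (-1.36, standard error 0.08), fell most. *JUN*, an AP-1 subunit, rose most (2.06, standard error 0.28), and had 28 to 43 counts with DMSO and 52 to 239 with TH588. *RASGRF1* had 0 counts in the DMSO libraries and 1 to 2 counts with TH588 and was not tested. *CDC25C*, *CENPJ* and *JUN* each stand in 2 of these lists.

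The immediate early genes, the class in which *PLK2* and *PLK3* were found, mostly rose. Of 18 tested, 14 were higher, 1 was lower and 3 did not pass, with a median of 1.74, beside 24.2% higher and 25.3% lower over all genes. *EGR1*, a zinc finger transcription factor, had 21.8, 16.4 and 14.3 CPM with DMSO and 217, 217.5 and 175.9 CPM with TH588, a log2 fold change of 3.54 (standard error 0.15). *FOS* (3.33, standard error 0.17) and *FOSL1* (2.93, standard error 0.28), subunits of AP-1, followed. *KLF6* was the single fall (-0.56, standard error 0.08). *FOSL1* was scarce, at a mean of 0.348 ± 0.126 CPM in controls against 2.66 ± 0.238 CPM in treated cells (SD, n = 3 each).

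Of 8 listed genes that p53 is known to induce, all 7 tested were higher, beside 24.2% of all genes, with a median of 2.26. They are plotted as cell cycle brakes, though not all act as such. *CDKN1A*, which encodes the CDK inhibitor p21, changed most (4.71, standard error 0.14), and *BTG2*, an antiproliferative gene, followed (3.395, standard error 0.16). *SFN*, which encodes 14-3-3 sigma, had 0, 1 and 5 counts with DMSO and 6, 25 and 16 counts with TH588. *RPRM* had 0 counts in all 6 libraries, for which 3 counts set an upper limit of 0.0276 CPM in TH588 replicate B and 0.112 CPM in TH588 replicate A.

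Of 11 tested genes of DREAM, the repressor complex that shuts cell cycle genes in resting cells, 6 were lower, 2 were higher and 3 did not pass, with a median of -0.52, beside 25.3% lower and 24.2% higher over all genes. *RBL1*, which encodes the pocket protein p107 (-1.48, standard error 0.08), *TFDP1*, the E2F partner (-1.27, standard error 0.09), and *LIN9*, a core subunit (-1.19, standard error 0.08), fell most. *TFDP2*, another E2F partner (0.46, standard error 0.08), and *LIN37*, a core subunit (0.49, standard error 0.17), were the rises. The *LIN37* call was lost without DMSO replicate A, TH588 replicate B or TH588 replicate C, and at an adjusted p under 0.01. Over all fits that left out a library, those that kept the call included, its log2 fold change lay between 0.40 and 0.58. Exons of other genes cover 54.0% of the exon bases of *LIN37*.

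The CHR letters were also counted in the promoter windows of these lists. They were present in 40.0% of 15 windows of mitotic entry genes, 41.4% of 29 windows of *PLK1* partners and substrates, 38.9% of 18 windows of the repressor complex and 21.7% of 23 windows of centriole duplication genes. The share was 23.5% of 17 windows of immediate early genes and 22.7% of 22 windows of *PLK2* and *PLK3* partners. It was 14.3% of 14 windows of genes plotted as brakes on *PLK1*. None of the 10 windows of p53-induced genes held the letters, against 15.2% of all windows. The CCAAT box stood in 66.7% of windows of mitotic entry genes, 58.6% for *PLK1* partners and substrates, 33.3% for the repressor complex and 47.8% for centriole duplication. Its share was 29.4% for immediate early genes, 59.1% for *PLK2* and *PLK3* partners and 35.7% for the brakes on *PLK1*. It was 70.0% for p53-induced genes and 34.6% over all windows. TTCCCGC stood in 39.1% of centriole duplication windows, 6.6% of all windows and 0.0 to 20.0% for the other lists. TTGGCGC stood in 16.7% for the repressor complex, 13.3% for mitotic entry, 0.0 to 9.1% for the other lists and 3.0% of all windows. TTCGCGC stood in 22.2% for the repressor complex, 20.0% for mitotic entry, 14.3% for the brakes, 0.0 to 6.9% for the other lists and 2.2% of all windows. The SP1 motif ranged from 43.5% for centriole duplication to 90.0% for p53-induced genes, against 45.0% of all windows. Several genes had more than 1 window, so windows are not independent, and these shares were not tested.

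Over the 6 libraries, the genes whose log2 CPM ran most like that of each member were named by Pearson's r among the 9750 genes that averaged 2 or more on the log2 CPM scale. For *PLK1* they were *MTFR2*, *TUB* and *NAF1* (r of 0.9996, 0.9994 and 0.9994). For *PLK4* they were *CCNE1*, *CENPN* and *DHX9* (r of 0.9996, 0.9994 and 0.9993). For *PLK2* they were *TOX4*, *TNFRSF10D* and *ANXA4* (r of 0.9996, 0.9995 and 0.9991), and for *PLK3* *SECISBP2L*, *CBFA2T2* and *GSDME* (r of 0.9974, 0.9972 and 0.9967). The 6 points are 2 treatment groups, so any gene with a clear difference scores high: r was above 0.95 with *PLK1* for 1872 genes (19.2%), with *PLK4* for 1700 (17.4%), with *PLK2* for 1124 (11.5%) and with *PLK3* for 609 (6.25%).

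**Figure D5:**
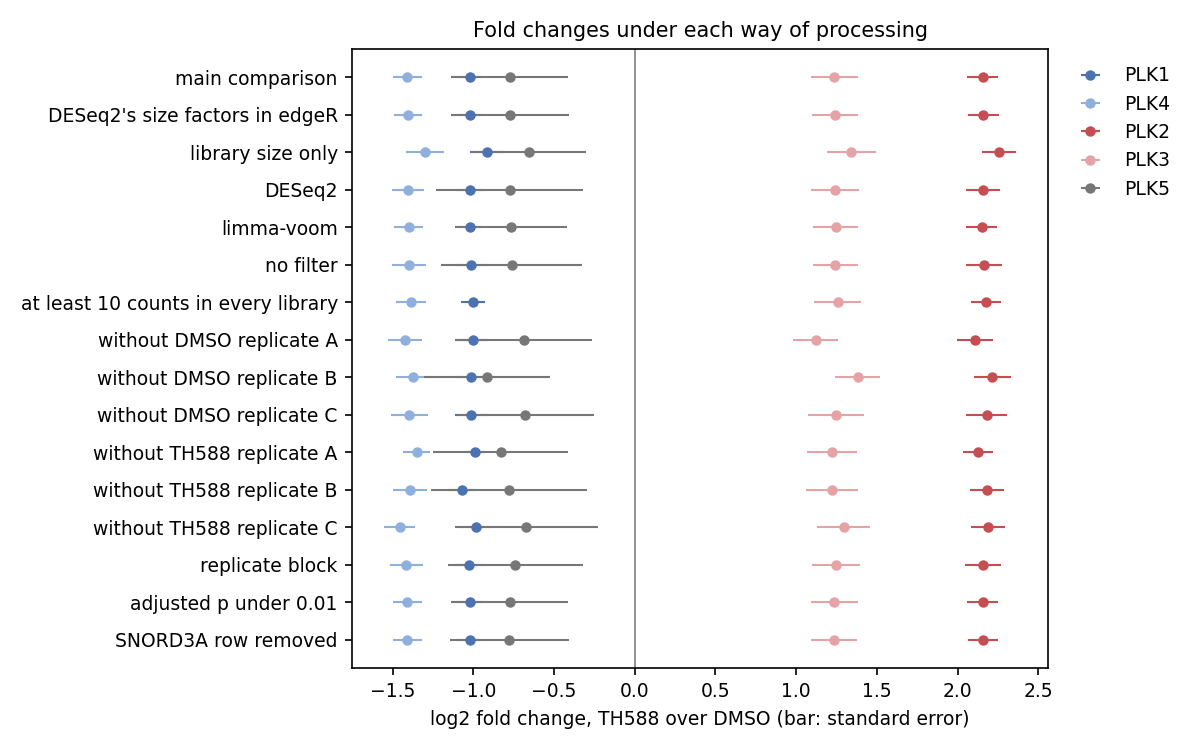
Log2 fold change of each member with its standard error in the main comparison and under each alternative. *PLK2* stays between 2.11 and 2.26, *PLK3* between 1.12 and 1.38, *PLK1* between -1.07 and -0.92 and *PLK4* between -1.46 and -1.30, while the bars of *PLK5* are the widest.

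The 4 called members kept direction and call in all 15 alternatives run, which are laid out in the plot of fold changes by processing. *PLK1* ran from -1.07 to -0.92, *PLK4* from -1.46 to -1.30, *PLK2* from 2.11 to 2.26 and *PLK3* from 1.12 to 1.38 on the log2 scale. *PLK5* could be fitted in 14 of them, between -0.92 and -0.66, and passed the threshold in none, with adjusted p-values from 0.0793 to 0.258 across edgeR, DESeq2 and limma-voom.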

How the data were processed

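Per the labels and methods, the authors made TruSeq v2 libraries of A2780 RNA, aligned reads to GRCh38 with TopHat and deposited raw counts per gene from featureCounts 1.4.6. Gene models are described as UCSC's, whereas identifiers in the table are Ensembl's; how reads shared between genes were counted is not given in the sources used here. Of 58336 identifiers, 57754 matched a symbol. The main fit used edgeR 4.0.16 (R 4.3.3): TMM, genes kept by filterByExpr, a quasi-likelihood F test and a Benjamini-Hochberg adjusted p under 0.05, with no replicate term. Standard errors are the log2 fold change over the root of F. Alternatives used DESeq2 1.42.0, limma 3.58.1, other scalings and filters, each library left out, a replicate block and a stricter threshold; removal of *SNORD3A* was chosen after seeing the data. On simulated counts, 142 of 193 genes changed by a log2 fold change of 1 were recovered among 15575 tested, and 11 calls were false, 7.2% of the calls. Far fewer genes were changed there than the 49.6% called in the data, so the simulation does not probe TMM when many genes change. Replicates differed by more than sampling noise (chi-square per degree of freedom 19.2 to 123).

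Members and gene lists were chosen with earlier results of these data known. Named from each list are up to 3 of the largest rises and falls among called genes, and genes at 0 counts. *STAG2*, *CHFR*, *AURKA*, *BORA*, *CDC25B*, *WEE1*, *PKMYT1* and *RASGRF1* fall outside that rule and were named after their values were seen. Some genes that the rule would name are not reported here. The balance between members had been planned on CPM and is given per length; the shift between treatments is the same on both scales.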

Additional observations from a re-analysis of the deposited data

How the results depend on the processing

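The fold changes of the members kept direction and side of the threshold in the alternatives run. The count of all called genes and the counts of calls per list moved by no more than 1.5 times, with an exception. Single genes of the lists were less steady, and their lost and gained calls are counted further on. The count of calls among the genes plotted as brakes on *PLK1* moved by over 1.5 times. That list, with 1 gene called, had 0 with library size only, 2 with limma-voom, 0 with the replicate block, 0 at an adjusted p under 0.01, and 0 to 2 in fits that each left out 1 library (0 without DMSO replicate A or C, 2 without DMSO replicate B). The cause was not tested. Scaling by library size alone shifted the median over all genes from 0.019 to 0.126 on the log2 scale and put *PLK1* at -0.92 and *PLK2* at 2.26. No pairing by replicate letter was seen in the values: same-letter deviations correlated at -0.07, -0.08 and 0. Such correlations cannot tell whether libraries of the same letter came from the same experiment. The replicate block gave 7195 called genes, 7129 of them also called without it, and *PLK1* to *PLK5* at -1.02, 2.16, 1.25, -1.41 and -0.74. The balance of *PLK2* and *PLK3* against *PLK1* and *PLK4* shifted by 2.84 to 3.004 with each library left out. Over all 110 tested list genes, 1538 values under alternatives held 61 lost calls, 19 gained calls and 7 changes of sign, the last in 4 genes that were not called (*KLHL22*, *CEP57*, *PPP1R12A* and *CIB1*). With at least 10 counts in every library, *PLK5* could not be fitted, since TH588 replicate A had 9 counts of it.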
